A study of Plutella xylostella with 12 samples.

Results

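RpL24 (LOC105382338) and Rps3 (LOC105381387) are the genes of 2 ribosomal proteins of the diamondback moth, Plutella xylostella, a pest of cabbage crops. They were taken by their identifiers, with symbols from a RefSeq gene table, and are 2 of the 19364 features in the deposited tables, and both were among the 15027 genes that had enough reads to be tested. The data are 12 poly(A) RNA-seq libraries of whole larval bodies at mid-fourth instar, each from a pool of 8 larvae, with 3 libraries for each of 4 groups. The groups were female larvae moved to 10 °C when early in the third instar, male larvae moved to 10 °C, female larvae kept at 25 °C and male larvae kept at 25 °C. All larvae came from a single laboratory population fed on cabbage leaves and had been reared at 25 °C up to that move, and the labels name no other treatment or genotype. The series asks whether the transcriptome responds to cold in a way that depends on sex.

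A ribosome is built from a small subunit, which reads the mRNA, and a large subunit, which joins amino acids into protein. Both are made of ribosomal RNA and many proteins whose mRNAs are among the most abundant of growing cells. RpL24 encodes a protein of the large subunit that lies at the contact with the small one, and a partial loss of its function gives a spotted belly and a kinked tail in mice. Rps3 encodes a protein of the small subunit at the channel where the mRNA enters, and flies with a single working copy of this gene have the slow growth and thin bristles of the Minute class. Ribosomal protein genes are also widely used as reference genes in insect qPCR.

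In the deposited tables RpL24 lies on scaffold NW_011952010 from 1398919 to 1401015 on the plus strand, with 5 exons that add up to 569 bp. Rps3 lies on scaffold NW_011952055 from 822405 to 824774 on the plus strand, with 4 exons that add up to 847 bp. Which genome build these positions refer to is not stated in the labels or file headers. Each gene has 1 annotated transcript, and the exons of 5.47% of tested genes add up to less than those of RpL24, and of 16% to less than those of Rps3. The nearest annotated neighbours are 1410 bp and 1685 bp from RpL24 and 3488 bp and 5534 bp from Rps3, so that no annotated gene overlaps either. All reads of both genes were uniquely mapped in all 12 libraries.

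Total gene reads ran from 10183278 to 30106219 per library, and no pair of libraries of a group agreed within counting noise. Genes of the midgut (Tryp_SPc1), the fat body (PxSP1, PxAry1 and PxAry2) and the nervous system (Ast-a) had reads in all 12 libraries. Another gene of the nervous system, ace1, had at most 3.69 TPM and reads in 9 libraries. The sex labels are in doubt at 10 °C. The 395 genes that stood at least 16-fold higher in males in the 25 °C libraries had a median level, as a percent of the male 25 °C mean, of 33.9 in female replicate 3 of 10 °C, but of 0.0977 in male replicate 3 of 10 °C. That median was 0 and 8.84 in the other two female libraries of 10 °C and 35.6 and 55.9 in the other two males of 10 °C. Results for cold, and for the sexes at 10 °C, are therefore also given without female and male replicates 3 of 10 °C. The libraries also differed in breadth: 10424 to 13678 genes stood at 1 TPM or more (transcript abundance corrected for exon length, with the same sum in every library) in those of 10 °C, against 7650 to 12056 in those of 25 °C.

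RpL24 was lower at 10 °C than at 25 °C on every scale, but the size of the difference depended on the scale and its call on single libraries. On the deposited TPM scale RpL24 stood at 4352, 2239 and 3684 TPM in female 10 °C replicates 1, 2 and 3, against 5125, 3638 and 7334 TPM in female 25 °C replicates 1, 2 and 4. In males it stood at 2826, 5915 and 3715 TPM at 10 °C, against 5994, 5652 and 5544 TPM at 25 °C. The male 25 °C libraries lay close together, and every other group held libraries far apart. The groups of 10 °C and 25 °C overlapped in both sexes, through a low female library of 25 °C (replicate 2) and a high male library of 10 °C (replicate 2).

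The same order appeared in CPM, read counts per library total scaled by TMM, a method that assumes most genes are unchanged between libraries. RpL24 stood at 1775, 501 and 1187 CPM in females at 10 °C, against 3021, 1351 and 7645 CPM in females at 25 °C. In males it stood at 986, 3436 and 1169 CPM at 10 °C, against 4698, 4269 and 4322 CPM at 25 °C. On this scale the 3 male libraries of 10 °C lay below the 3 of 25 °C, while those of females overlapped. From low to high, the group means were 1154 ± 638 CPM in females at 10 °C, 1864 ± 1365 in males at 10 °C, 4006 ± 3260.3 in females at 25 °C and 4429.7 ± 234 in males at 25 °C (SD, n = 3). Each neighbouring pair in that order overlapped in its libraries.

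For Rps3 the direction of the difference between the temperatures depended on the scale, and it was smaller than that of RpL24 in CPM but of similar size in TPM. On the TPM scale it stood at 3427, 3200.2 and 3717 TPM in female 10 °C replicates 1, 2 and 3, against 3268, 3818 and 1476 TPM in female 25 °C replicates 1, 2 and 4. In males it stood at 2434, 2625 and 3664 TPM at 10 °C, against 1727, 1826 and 1801 TPM at 25 °C. All 3 male libraries of 10 °C were thus above all 3 of 25 °C, and the female libraries of 25 °C spanned the whole range of those of 10 °C.

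In TMM-scaled CPM the order was the other way. Rps3 stood at 2081, 1065 and 1782 CPM in females at 10 °C, against 2868, 2111 and 2290.1 CPM in females at 25 °C. In males it stood at 1264, 2271 and 1717 CPM at 10 °C, against 2015, 2055 and 2090.3 CPM at 25 °C. On this scale it was the female libraries of 10 °C that all lay below those of 25 °C, while the male libraries overlapped. From low to high, the group means were 1643 ± 522 CPM in females at 10 °C, 1751 ± 505 in males at 10 °C, 2054 ± 37.7 in males at 25 °C and 2423 ± 396 in females at 25 °C (SD, n = 3). In that order the libraries of neighbouring groups overlapped, except those of females and males at 25 °C. TMM factors ran from 0.944 to 1.65 in the libraries of 10 °C and from 0.588 to 1.17 in those of 25 °C.

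**Figure D1:**
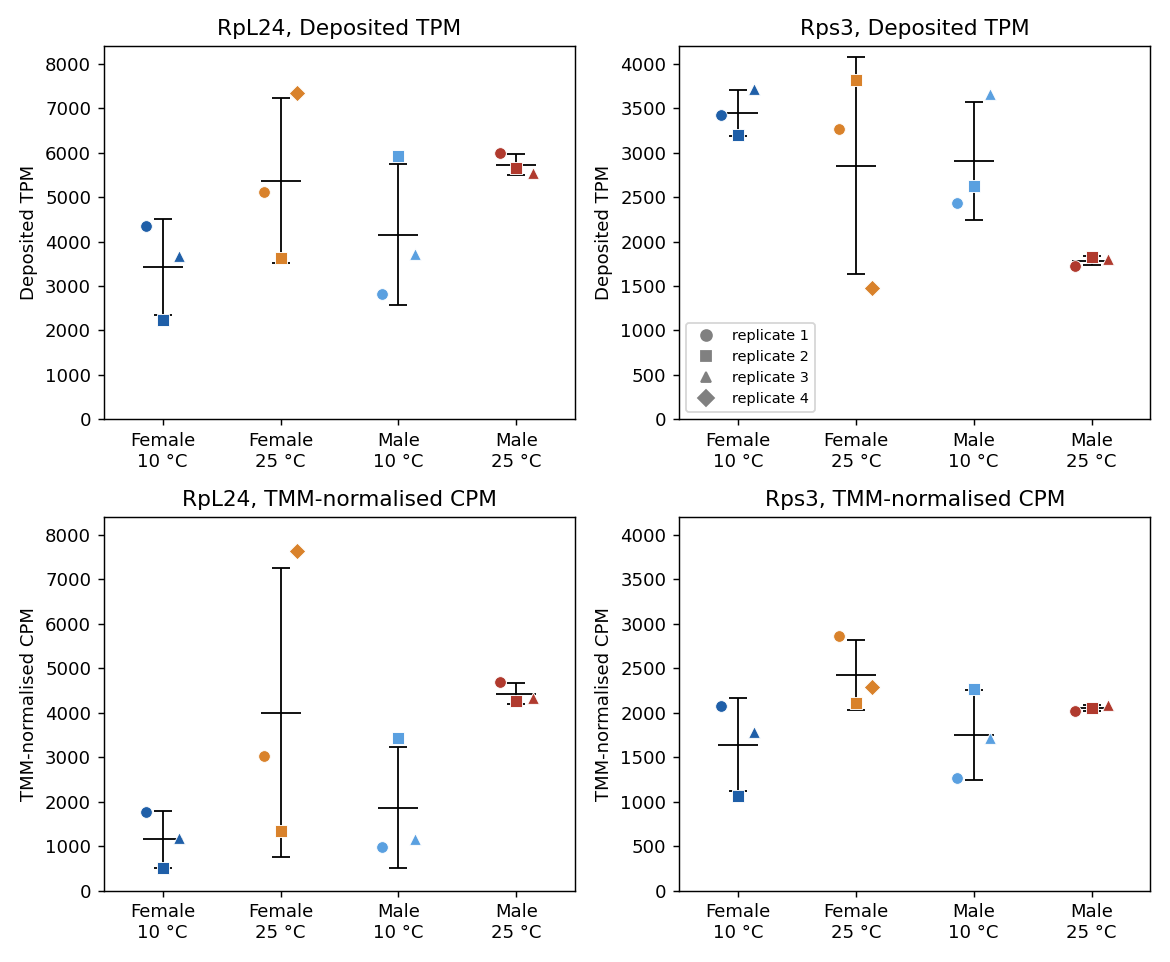
Level of RpL24 (left) and Rps3 (right) in each library as deposited TPM (top) and TMM-normalised CPM (bottom), by sex and temperature; points are libraries, bars the mean ± SD of 3 libraries, and the vertical axes of the 2 genes differ. In males at 10 °C, Rps3 lies above the 25 °C libraries in TPM (2434 to 3664 against 1727 to 1826) and around them in CPM (1264 to 2271 against 2015 to 2090.3).

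Tested with edgeR's quasi-likelihood test over all 12 libraries, RpL24 fell at 10 °C in the comparison averaged over both sexes, with a log2 fold change of -1.52 ± 0.49 (SE; edgeR Benjamini-Hochberg adjusted p = 0.0463). RpL24 was thus the 1 gene of the pair that was called, in a comparison that called 23% of all tested genes, 13.7% as higher and 9.31% as lower; DESeq2 called 39.5% and limma voom 50.8%, RpL24 among them in both. Of all tested genes, 6.11% had a more negative change, and the median over all tested genes was 0.23. Rps3 had a log2 fold change of -0.40 ± 0.26 in this comparison (edgeR adjusted p = 0.251), and passed with limma voom alone of the tools run (-0.48, limma adjusted p = 0.0339). The p-values measure the spread between pools of larvae from 1 laboratory population. With bulk samples of whole bodies, fewer cells that use a gene and less of its RNA per cell cannot be told apart.

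The call on RpL24 stood close to the threshold and rested on most libraries. It was kept without female 10 °C replicate 1 (-1.75), male 10 °C replicate 2 (-1.88) or female 25 °C replicate 2 (-1.73). It was lost without female 10 °C replicate 2 (-1.34) or 3 (-1.53), and without male 10 °C replicate 1 (-1.37) or 3 (-1.40). It was also lost without female 25 °C replicate 1 (-1.56) or 4 (-1.06), and without male 25 °C replicate 1 (-1.46), 2 (-1.51) or 3 (-1.48). Without both libraries of doubted sex the change was -1.40 ± 0.60 (edgeR adjusted p = 0.156). For Rps3 in that fit it was -0.42 (edgeR adjusted p = 0.396). When each library's trend of counts with exon length was removed, the change of RpL24 was -1.02 ± 0.36 (edgeR adjusted p = 0.0578) and that of Rps3 -0.05.

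On the TPM scale the cold differences of the pair had opposite signs. RpL24 had a difference in mean log2 TPM of -0.59 over 6 libraries of 10 °C against 6 of 25 °C (exact permutation test, two-sided, p = 0.0411). Rps3 had a difference of 0.53 (exact permutation p = 0.0649). The exact permutation p was 0.325 for both once adjusted over the 10 TPM comparisons of the pair, so neither passed. In TMM-scaled CPM the same test gave -1.56 for RpL24 and -0.44 for Rps3 (exact permutation p = 0.0152 and 0.0325). Adjusted over the 10 CPM comparisons these p-values were 0.152 and 0.163, so neither passed there.

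Neither gene passed within a single sex. In females RpL24 had a log2 change of -1.80 ± 0.70 (edgeR adjusted p = 0.26) and Rps3 of -0.56 ± 0.37 (edgeR adjusted p = 0.40). In males RpL24 had -1.25 ± 0.69 (edgeR adjusted p = 0.218) and Rps3 -0.23 ± 0.37 (edgeR adjusted p = 0.663). Calls were rare in these comparisons, at 0.0399% of all tested genes in females and 0.02% in males. The size in each sex rested on single libraries, so the larger value in females is no sign of a larger fall there. In females RpL24 was at -0.92 without female 25 °C replicate 4 and at -0.82 with the replicate number as a block. Number 4 occurs only in female 25 °C replicate 4, so the block in effect leaves out the same library. In males RpL24 was at -2.0 without male 10 °C replicate 2. The range without single libraries was -2.25 to -0.92 in females and -2.0 to -0.94 in males. Without the 2 libraries of doubted sex the changes of RpL24 were -1.81 in females and -1.0 in males, and those of Rps3 were -0.62 and -0.21. With limma voom, RpL24 passed in both sexes, at -1.26 in females and -1.79 in males (limma adjusted p = 0.0489 and 0.00807); that tool called 10.7% of all genes in females and 46.8% in males. With DESeq2, which called 4.94% and 23.6%, neither gene passed in a single sex.

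The question of the series is whether cold acts differently in the sexes. The cold response of females minus that of males was -0.55 ± 0.96 for RpL24 and -0.33 ± 0.52 for Rps3 (log2; edgeR adjusted p = 0.965 and 0.948). The sign for RpL24 turned to 0.24 without male 10 °C replicate 2 and to 0.28 without female 25 °C replicate 4. Without the 2 libraries of doubted sex the difference was -0.81 for RpL24 and -0.41 for Rps3.

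Between the sexes, RpL24 had a log2 change, female over male, of -0.69 ± 0.68 at 10 °C and -0.15 ± 0.68 at 25 °C (edgeR adjusted p = 1 and 0.917). Rps3 had -0.09 ± 0.37 at 10 °C and 0.24 ± 0.37 at 25 °C (edgeR adjusted p = 1 and 0.734). Without the 2 libraries of doubted sex the values at 10 °C were -0.96 for RpL24 and -0.17 for Rps3. The female libraries of 25 °C spread over a far wider range of RpL24 than the male ones, from 1351 to 7645 against 4269 to 4698 CPM. For Rps3 at 25 °C, all 3 female libraries stood above all 3 male libraries in CPM, from 2111 to 2868 against 2015 to 2090.3. In TPM those groups overlapped, with female 25 °C replicate 4 at 1476 TPM. The test called 0% of all tested genes in either sex comparison and in the difference of cold responses. Unadjusted p-values below 0.05 were found for 120 genes at 10 °C, 3369 at 25 °C and 1351 for the difference. In the same order DESeq2 called 0, 2041 (13.6%) and 15 genes (0.0998%) and limma voom 0, 4667 (31.1%) and 8 genes (0.0532%), with neither RpL24 nor Rps3 among them.

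**Figure D2:**
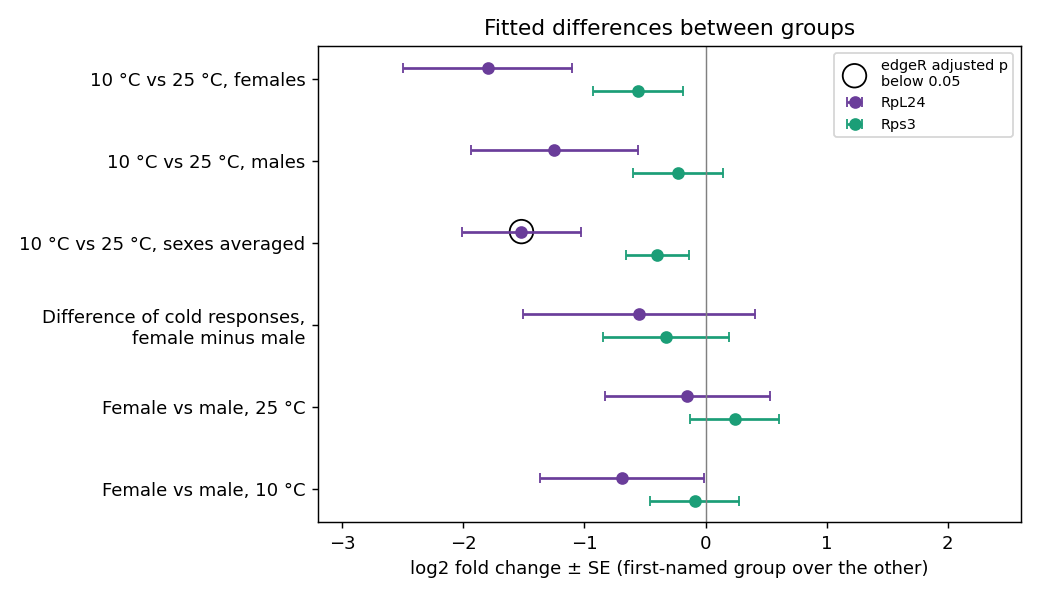
Log2 fold change ± SE of RpL24 (purple) and Rps3 (green) in 6 comparisons from 1 edgeR quasi-likelihood fit of 12 libraries; the first-named group is over the other, and a ring marks an adjusted p below 0.05. The ring stands at RpL24 in the averaged cold comparison alone, at -1.52.

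The ratio of the 2 mRNAs within a library does not depend on how libraries are scaled to each other. RpL24 per Rps3, in TPM, was 1.27, 0.70 and 0.991 in female 10 °C replicates 1, 2 and 3, against 1.57, 0.953 and 4.97 in female 25 °C replicates 1, 2 and 4. In males it was 1.16, 2.25 and 1.01 at 10 °C, against 3.47, 3.09 and 3.08 at 25 °C. All 3 male libraries of 10 °C were below all 3 of 25 °C, while female 25 °C replicate 2 lay among the female libraries of 10 °C. The highest and the lowest of the 12 ratios were those of female 25 °C replicate 4 and female 10 °C replicate 2.

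Over both sexes the mean log2 ratio was 0.20 ± 0.56 at 10 °C and 1.32 ± 0.87 at 25 °C (SD, n = 6), a difference of -1.12, or a ratio 2.17 times lower at 10 °C. The exact permutation test gave p = 0.026, two-sided, and 0.13 adjusted over the 5 ratio comparisons, so the difference did not pass after adjustment. Within females it was -1.03 (exact permutation p = 0.3) and within males -1.21 (exact permutation p = 0.1, the smallest that 3 libraries against 3 allow). The female value was -0.35 without female 25 °C replicate 4. It was -0.37 with the replicate number as a block, which pairs equal numbers and so leaves out that library and female 10 °C replicate 3. Without single libraries the difference ran from -1.54 to -0.35 in females and from -1.56 to -0.99 in males. Females against males gave -0.53 at 10 °C and -0.72 at 25 °C (exact permutation p = 0.4 for both). At 10 °C this was -0.78 when the 2 libraries of doubted sex were left out. Without the 2 libraries of doubted sex the difference over both sexes was -1.02 (exact permutation p = 0.0762). The unadjusted p also no longer reached the 0.05 threshold without female 10 °C replicate 2 (-0.98), female 25 °C replicate 4 (-0.92), and male 25 °C replicate 1 (-1.02), 2 (-1.06) or 3 (-1.06).

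**Figure D3:**
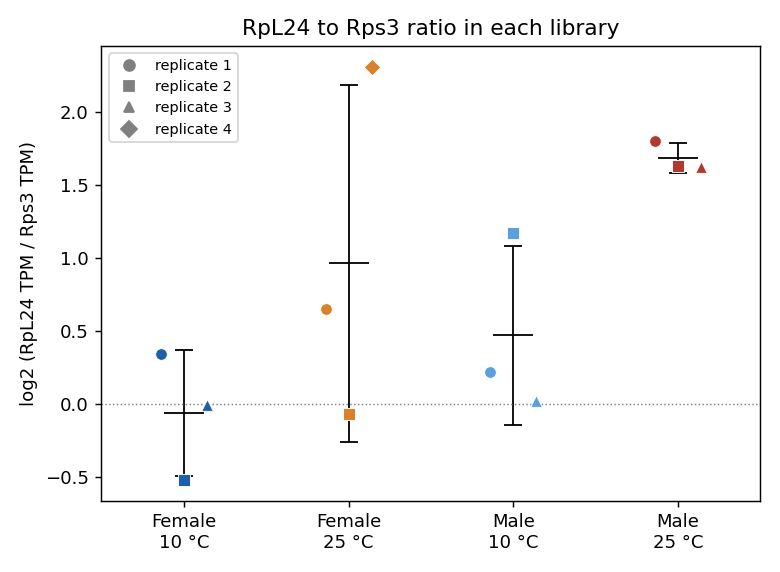
Log2 of RpL24 TPM over Rps3 TPM in each library, by sex and temperature, with bars for the mean ± SD of 3 libraries and a dotted line where both genes are equal. Male 25 °C libraries lie at 1.62 to 1.80 and female 25 °C libraries range from -0.07 to 2.31.

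The ratio went with the breadth of the library at both temperatures. Over the 6 libraries of 10 °C, Pearson's r between the log2 ratio and the number of genes at 1 TPM or more was -0.95 and Spearman's rho -0.94 (exact permutation p = 0.00417 and 0.0167, adjusted over 6 relations 0.0111 and 0.0334). Without female and male 10 °C replicates 2, the 2 farthest from the median, r was -0.72. Over the 6 libraries of 25 °C, r was -0.98 and rho -1 (exact permutation p = 0.00139 and 0.00278, adjusted 0.00834 for both), and r was -1 without female 25 °C replicates 2 and 4. The 4 libraries left were female 25 °C replicate 1 (10082 genes, log2 ratio 0.65) and the 3 males, close together at 8856 to 9116 genes and 1.62 to 1.80. The permutations of all 6 relations ignored sex. The balance of short against long transcripts moved with the ratio as well. This balance is the median level of genes with up to 1043 bp of exon minus that of genes with 2566 bp or more, each gene relative to its own mean. At 10 °C, r was 0.97 and rho 0.83 (exact permutation p = 0.0111 and 0.0583, adjusted 0.0167 and 0.0874), and r was 0.61 without female and male 10 °C replicates 2. At 25 °C, r was 0.88 and rho 0.60 (exact permutation p = 0.0292 and 0.242, adjusted 0.035 and 0.29), and r was -0.75 without female 25 °C replicates 1 and 2, so that relation rests on those libraries. The part of breadth and of transcript length in the cold difference was not tested.

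**Figure D4:**
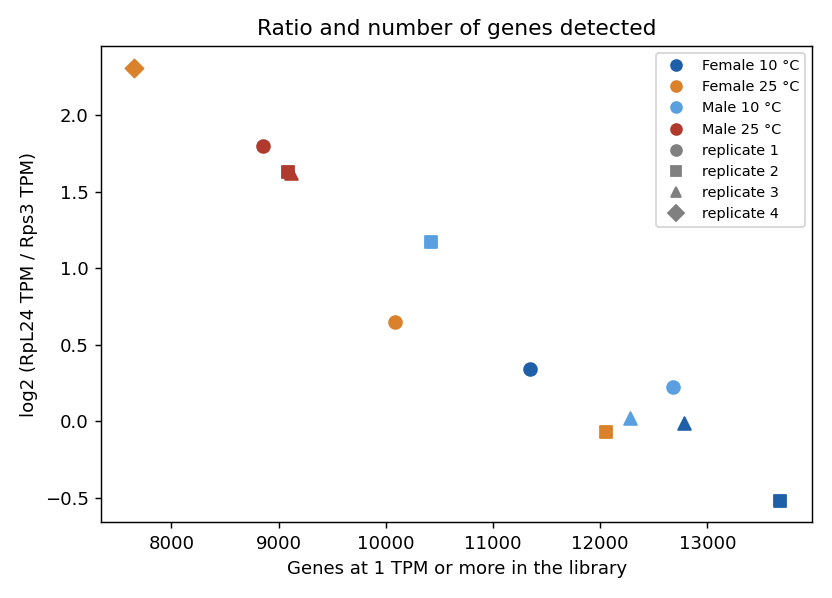
Log2 of RpL24 TPM over Rps3 TPM against the number of genes at 1 TPM or more, 1 point for each of 12 libraries, coloured by group and shaped by replicate. Female 25 °C replicate 4, with 7650 such genes, has the highest log2 ratio (2.31), and female 10 °C replicate 2, with 13678, has the lowest (-0.52).

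In TMM-scaled CPM the levels of the pair were correlated over the libraries of 10 °C, and no such relation passed at 25 °C. In log2 CPM over the 6 libraries of 10 °C, r between RpL24 and Rps3 was 0.92 and rho 1.00 (exact permutation p = 0.00556 and 0.00278, adjusted over the same 6 relations 0.0111 and 0.00834), and r was 0.88 without female and male 10 °C replicates 2. Over the 6 libraries of 25 °C, r was -0.06 and rho -0.26 (exact permutation p = 0.903 and 0.658, adjusted 0.903 and 0.658), and r was -0.99 over the 4 libraries left without female 25 °C replicates 2 and 4. Those 4 were female 25 °C replicate 1 and the male libraries of 25 °C. The difference between the temperatures was not tested. These correlations share the TMM factors of the libraries, and the relation was not tested in TPM, where the order differed. At 10 °C, male replicate 2 had the highest RpL24 (5915 TPM) with Rps3 at 2625 TPM. Female replicate 2 had the lowest RpL24 there (2239 TPM) with Rps3 at 3200.2 TPM. At 25 °C, female replicate 4 had the highest RpL24 and the lowest Rps3 (7334 and 1476 TPM). Female replicate 2 had the lowest RpL24 and the highest Rps3 of 25 °C (3638 and 3818 TPM).

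Over all 12 libraries r between the pair was 0.76, which placed Rps3 at rank 2849 of the 15026 other genes by likeness to RpL24. By likeness to Rps3, the same r placed RpL24 at rank 423. The genes most like RpL24 were LOC105387598 (r = 0.998), LOC105396601 (0.997) and LOC105392953 (0.997), which carry no symbol. RpS13, a small-subunit protein gene, ranked 6 with r = 0.996. As many as 1509 genes reached an r of 0.9 or more with RpL24. Rps3 had 18 such genes, of which the most alike were LOC105388192 (r = 0.957), LOC105388973 (0.957) and LOC105394538 (0.956), again without symbols. RpS13 had r = 0.780 with Rps3, at rank 318. The median r over all genes was -0.15 with RpL24 and -0.16 with Rps3.

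RpS13 is the only other cytosolic ribosomal protein gene with a symbol in the tables, since the files and the gene table hold no product names. Its averaged cold change was -1.29 ± 0.45 (edgeR adjusted p = 0.0541), so of 3 such genes 1 fell and 0 rose, with a median change of -1.29, in a comparison that called 9.31% of all tested genes as lower. RpS13 passed with DESeq2 (adjusted p = 0.0129), limma voom (0.00309), DESeq2 size factors in edgeR (0.049) and exon reads in edgeR (0.0493). Limma voom called all 3 of these genes, the pair included, but also 50.8% of all tested genes, 21.3% as lower. DESeq2 called 39.5% of all tested genes, 15.5% as lower. In TPM, RpS13 stood between 1564 and 3002 in females at 10 °C, against 2542 and 4098 in females at 25 °C. In males it stood between 2177 and 3846 at 10 °C, against 3442 and 3565 at 25 °C.

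Of 3 further genes of translation and growth with symbols, 2 fell in the averaged comparison and 0 rose, with a median change of -1.65, where 9.31% of all tested genes were called as lower. The growth-related gene Tctp had -1.65 ± 0.41 and the gene named ubiquitin, a tag for protein turnover, -1.70 ± 0.50 (edgeR adjusted p = 0.0287 and 0.038). Tctp was lower in TPM as well, between 1349 and 2464 in females at 10 °C, against 3028 and 3795 in females at 25 °C, and between 2163 and 3107 in males at 10 °C, against 3901 and 4322 in males at 25 °C. The translation initiation helicase gene eIF4A had -0.51 ± 0.28 (edgeR adjusted p = 0.178), and passed with limma voom (-0.47, limma adjusted p = 0.0426). eIF4A also shared with Rps3 the turn of sign between scales: in TPM it stood between 962 and 1065 in females at 10 °C, against 733 and 1029 in females at 25 °C. In males it stood between 942 and 1059.8 TPM at 10 °C, against 597 and 715 TPM at 25 °C. Tctp and ubiquitin both lost their calls when the 2 libraries of doubted sex were left out (-1.59 and -1.56; edgeR adjusted p = 0.113 and 0.134), and also with the replicate block (-1.31 and -1.18; edgeR adjusted p = 0.117 and 0.169). When single libraries were left out, both kept their calls only without female 10 °C replicate 1, male 10 °C replicate 2 or female 25 °C replicate 2.

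Reads across exon junctions and reads in introns were also counted for both genes. For RpL24, 98.0 to 99.0% of exon reads crossed a junction at 10 °C and 97.9 to 99.1% at 25 °C. For Rps3 the share was 81.5, 83.8 and 82.7% in females at 10 °C, against 74.6, 79.7 and 78.1% in females at 25 °C. In males it was 89.6, 82.7 and 81.1% at 10 °C, against 81.3, 77.0 and 81.0% at 25 °C. The female groups did not overlap, and in males replicate 3 of 10 °C fell within the 25 °C range. Over all genes the share was 46.3 to 56.5% at 10 °C and 45.8 to 48.8% at 25 °C, with male 10 °C replicate 1 highest there too. No test was run on these shares.

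Intron reads were few for both genes. RpL24 had 11 to 35 in each library of 10 °C and 3 to 24 in each of 25 °C. Per 10000 gene reads this was 4.27 to 13.1 at 10 °C and 1.09 to 4.83 at 25 °C. Rps3 had 18 to 38 intron reads at 10 °C and 2 to 27 at 25 °C, or 7.63 to 11.8 and 0.764 to 10.4 per 10000. The libraries of the temperatures overlapped for both genes, more so for Rps3. Intron reads over all genes were 4.23 to 8.25% of gene reads at 10 °C and 3.81 to 4.89% at 25 °C, and their part in these values was not tested.

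Both mRNAs were abundant in every library. By TPM, RpL24 ranked 26 to 70 among all features at 10 °C, against 25 to 45 at 25 °C. Rps3 ranked 33 to 90 at 10 °C, against 38 to 121 at 25 °C. RpL24 drew 0.0825 to 0.324% of all gene reads at 10 °C and 0.158 to 0.449% at 25 °C, which is 8398 to 51531 and 24866 to 60664 reads. Rps3 drew 0.153 to 0.246% at 10 °C and 0.135 to 0.247% at 25 °C. At these depths counting error is small beside the spread between libraries.

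**Figure D5:**
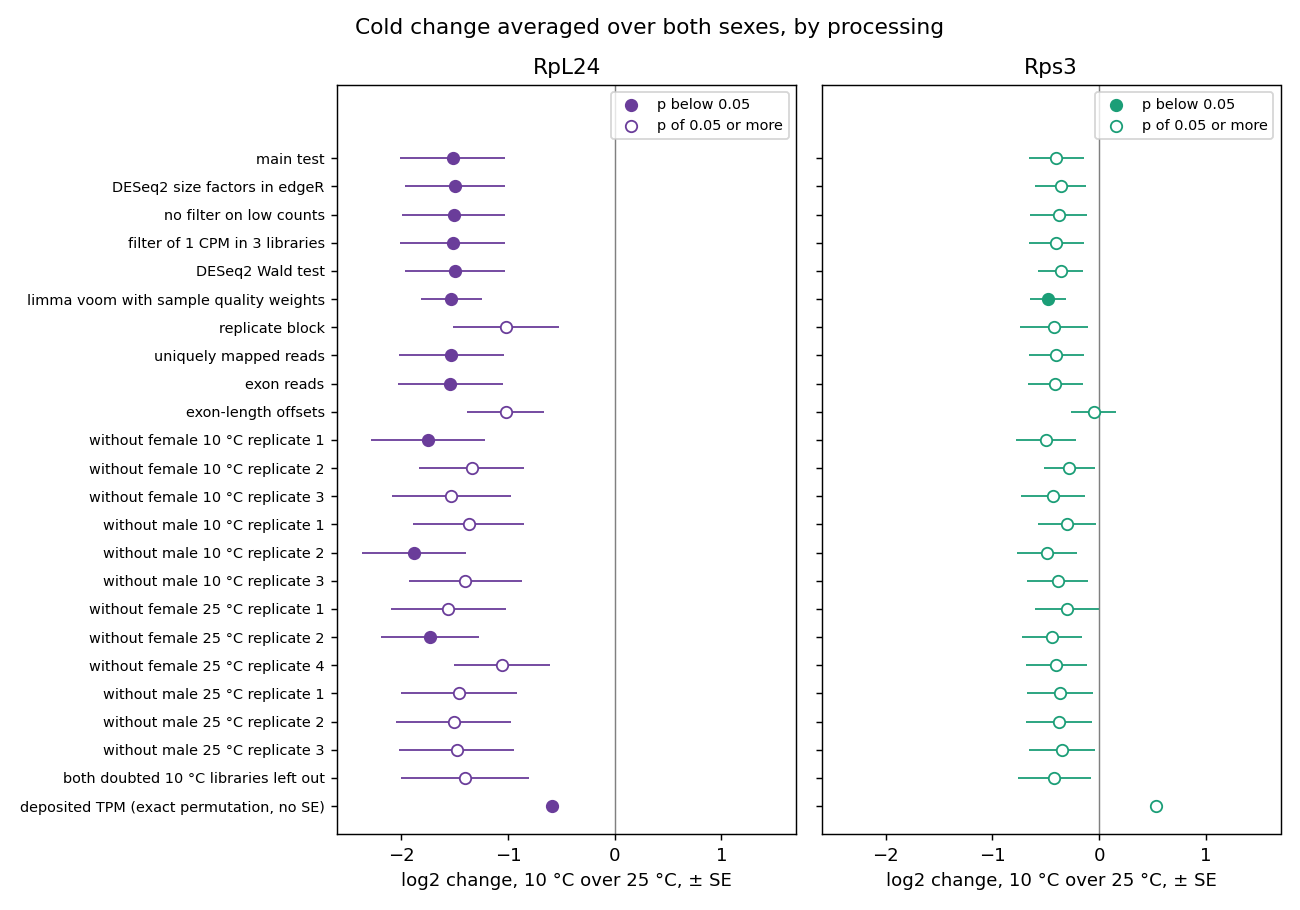
Log2 change of RpL24 (left) and Rps3 (right) at 10 °C over 25 °C, averaged over both sexes, under each way of processing, with SE bars where a model gave one; filled points have p below 0.05 (adjusted in the model fits, unadjusted exact permutation for TPM). RpL24 stays below 0 in each, from -1.88 to -0.59, and Rps3 stands at 0.53 on the TPM scale.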

How the data were processed

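The authors deposited 1 table per library with read counts, uniquely mapped counts, exon, intron and junction counts, TPM and RPKM values, all named per the file headers. TPM was used as the authors deposited it, RPKM was not used for any result, and the deposited fraction of unique exon reads was not used either. Reads were paired NovaSeq reads of poly(A) RNA primed at random, per the labels' protocols, and no source used here names the aligner, counter or build. Gene symbols came from a RefSeq gene table of the ilPluXylo3.1 assembly, which matched 10698 identifiers.

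Counts as deposited were fitted with edgeR 4.0.16 (R 4.3.3; quasi-likelihood test, TMM, Benjamini-Hochberg threshold 0.05) on all 12 libraries with a term per group; the SE is the log2 change divided by the root of the F statistic. Genes were kept by edgeR's expression filter (count minimum 10, total minimum 15), which left 15027 of 19364. DESeq2 1.42.0, limma 3.58.1 (voom with sample quality weights), other scalings, filters and counts, exon-length offsets, a replicate block and leaving out libraries were the alternatives. Ratios, levels in TPM and CPM, and relations were tested by exact permutation in Python 3.11.15. The genes and lists were chosen with earlier results of these data known, and the TPM-scale comparison was added after seeing the data. Named genes are the pair, the 3 genes most correlated with each, and all list members with a symbol. No mitochondrial ribosomal protein gene carried a symbol. Depth ran from 10183278 to 30106219 gene reads.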

Additional observations from a re-analysis of the deposited data

How the results depend on the processing

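Of 342 values of the main results under an alternative, 303 kept direction and side of the 0.05 threshold, 19 no longer reached it, 3 newly reached it and 17 changed sign. The cause was not tested. Only the averaged cold change of RpL24 and the ratio over both sexes were below 0.05 in the main tests. They stayed below it in 11 of 23 and 10 of 17 alternatives. Reads per kilobase, unique reads and a pseudocount of 1 can barely alter a ratio, yet are among the 303 and the 10. All other results began above 0.05. Exact tests of 3 libraries against 3 cannot go below 0.1, so theirs could not reach the threshold. The threshold is on adjusted p in the model fits and on unadjusted exact p for the ratio and TPM. Of the 19, 7 are of the ratio over both sexes, which did not pass once adjusted. For the averaged cold change, RpL24 was at -1.02 with the replicate block (edgeR adjusted p = 0.211), -1.02 with exon-length offsets, -1.40 without both libraries of doubted sex, and -1.88 to -1.06 without single libraries, with adjusted p from 0.00195 to 0.211 over the alternatives that keep all libraries and from 0.0181 to 0.124 without single libraries. With limma voom RpL24 passed in females (-1.26) and males (-1.79), and Rps3 in the averaged comparison (-0.48, limma adjusted p = 0.0339). On the TPM scale Rps3 turned to 0.53 averaged, 0.38 in females, 0.68 in males and 0.27 for females against males at 10 °C. With exon-length offsets Rps3 turned to 0.19 in males and 0.06 for females against males at 10 °C, and RpL24 to 0.08 for females against males at 25 °C. The difference of cold responses of RpL24 turned to 0.53 with voom and 0.41 with the replicate block, and ran from -1.0 to 0.28 without single libraries. Without single libraries, females against males gave -1.15 to 0.09 at 10 °C and -0.99 to 0.27 at 25 °C for RpL24, and -0.30 to 0.14 at 10 °C for Rps3, which voom put at 0.15. The ratio difference was -0.88 with the replicate block, -1.02 without both libraries of doubted sex and -1.40 to -0.92 without single libraries. Its block test flips the signs of same-number pairs, without female 10 °C replicate 3 and female 25 °C replicate 4. Its exact permutation p of 0.0625, among the 7, is the smallest possible, so it could not reach 0.05. Hsp90 turned to 0.08 with voom and 0.18 with the block, and ran from -0.16 to 0.18 without single libraries. Replicate numbers did not pair the samples: 15 same-number pairs correlated at r from -0.739 to 0.573, with 3 over 0.1. The number of genes called for averaged cold was 3453, against 20 with the block, 8 without both doubted libraries, 5932 by DESeq2, 7629 by voom and 55 to 5803 without single libraries. In females it was 6, against 0 to 1608, and 1 to 23 without single libraries. In males it was 3, against 1 to 7031, and 1 to 3219 without single libraries. For females against males it was 0 throughout at 10 °C, and 0 at 25 °C, against 0 to 4667 and, without single libraries, 0 to 1745. For the difference of responses it was 0, against up to 15. A fit of only the groups compared gives no separate averaged or difference value, and the TPM scale was not run for the difference of responses. With 3 pools in each group and this spread between them, precision was limited by the libraries and not by depth.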

Other observations

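Among genes that are often chosen as qPCR references in insects, the calls for averaged cold depended on the tool and the levels on the scale. Of 5 with a symbol, RpS13 included, 0 rose and 0 fell in edgeR, which called 23% of all tested genes, with a median log2 change of -0.31 against 0.23 over all tested genes. DESeq2, which called 39.5% of all genes, called RpS13 (adjusted p = 0.0129) and actin (0.0164). Limma voom, which called 50.8%, called RpS13 (adjusted p = 0.00309), actin (0.0139) and hsc70 (0.01).

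Gapdh, a glycolytic enzyme gene, had -0.31 ± 0.25, and Hsp90 and hsc70, both chaperone genes, had -0.05 ± 0.25 and -0.58 ± 0.27 (edgeR adjusted p = 0.345, 0.885 and 0.112), with hsc70 at -0.78 under exon-length offsets (edgeR adjusted p = 0.0386). In TPM, Hsp90 stood between 485 and 914 at 10 °C, against 320.2 and 423 at 25 °C, with no overlap. Gapdh averaged 1842 TPM in females at 10 °C, against 1226 in females at 25 °C, and 1814 in males at 10 °C, against 1057 in males at 25 °C, so its sign turned between the scales. The actin gene had 1.19 ± 0.44 (edgeR adjusted p = 0.0648), with only 54.5% of its reads uniquely mapped, so its level is uncertain. Over the 12 libraries, log2 CPM of actin had r = -0.754 with RpL24 and r = -0.189 with Rps3, given as descriptions over libraries that share their scaling.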
